A study of Rattus norvegicus with 3 samples.

Results

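The genes described here act in coagulation and fibrinolysis, and their RNA was measured in the cerebellar cortex of rats after middle cerebral artery occlusion (MCAO). They are F3, Tfpi, Thbd, Procr, Pros1, Vwf, Plat, Anxa2 and Serpine2. A probe was taken when the accession given for it on the array belonged to the RefSeq symbol of 1 of these genes. All 9 genes were found, with 12 probes on 21 spots, among 38973 genes on the arrays, of which 16654 had a symbol. The scanner software flags a spot as well above background when it is clearly brighter than its surroundings. A gene is called detected here when all its probes had this flag on each of the 3 arrays, which held for 6 of the 9 genes and for 22085 genes in all.

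The study asked what happens in the cerebellar cortex on the side opposite a stroke, where blood flow falls although the tissue itself is not infarcted (crossed cerebellar diaschisis). Male Wistar rats of 9 weeks had a transient occlusion of the right middle cerebral artery or a sham operation, and tissue was taken 2 days later. In the MCAO group the left cerebellar cortex was the contralateral sample and the right cerebellar cortex the ipsilateral sample, and the control sample was the left cerebellar cortex after the sham operation. For each array the cortex of 4 rats was put together as 1 pool, and the 2 pools of the MCAO group came from the same 4 rats, so agreement of the sides is no replication. There was 1 array per group and no replicate, so no test could be made. Both ratios to control use the same control array. The error given with a ratio is the error that the scanner software assigns to each spot, and it covers neither rats nor hybridisations. A log2 ratio beyond 1 in either direction counted as changed, as in the methods of the study.

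Of 58717 spots for rat transcripts, those well above background numbered 42470 for the contralateral, 43028 for the ipsilateral and 43283 for the control pool. Signals are fluorescence intensities brought to a common 75th percentile, which was 2103, 1614 and 2336 in the same order before scaling. The ipsilateral array was the dimmest. Markers of granule cells and of Purkinje cells, the main neurons of this cortex, were detected for 6 of 6 and 6 of 6 genes. Their median log2 ratios were 0.02 and 0.14 in the contralateral and -0.02 and 0.11 in the ipsilateral pool. The medians depended on the scaling. Ipsilaterally they were -0.27 and -0.14 with spike-in scaling and -0.55 and -0.42 without scaling. Contralaterally they were -0.06 and 0.06 with spike-in scaling and -0.13 and -0.02 without scaling. The tissue is a mixture of cells, and in it fewer cells of a type and less RNA per cell cannot be told apart.

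Coagulation starts when blood meets tissue factor, the membrane protein encoded by F3, which astrocytes and cells around vessels carry and which binds factor VII. Endothelial cells hold the reaction back with tissue factor pathway inhibitor, and with thrombomodulin and the endothelial protein C receptor, which turn thrombin towards activating protein C. Fibrin that has formed is dissolved by plasmin, which tissue plasminogen activator makes from plasminogen, and in the brain several of these proteases and their inhibitors are also made by neurons and glia.

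F3, which encodes tissue factor, had the highest ratio of the 9 genes on both sides. Its probe was printed on 10 spots of each array. On the common scale these spots read 1920 to 2175 with a median of 2042 on the contralateral array, 1801 to 2109 with a median of 1969 on the ipsilateral array and 1321 to 1515 with a median of 1396 on the control array. Every spot of both arrays of the MCAO group thus lay above every spot of the control array. Between the 10 spots the log2 signal had an SD of 0.057, 0.071 and 0.053 in the same order. The log2 ratio to control was 0.54 contralaterally and 0.48 ipsilaterally, or 1.45-fold and 1.39-fold, each with a scanner error of 0.20. The sides differed from each other by 0.06, less than this error, but by 0.24 with spike-in scaling and 0.45 without scaling, which pass it. Spots of 1 array share the same RNA and hybridisation, so their spread says nothing of rats.

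The ipsilateral value of F3 depended on the scaling. Without scaling the spots had signals of 1457 to 1707 on the ipsilateral array and 1547 to 1775 on the control array, which overlap, and the log2 ratio was -0.06. It was positive under 7 of 8 scalings and at most 0.49. The contralateral ratio lay between 0.39 and 0.57 and was positive under 8 of 8, and the unscaled contralateral spots, 2025 to 2294, did not overlap those of the control array.

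**Figure D1:**
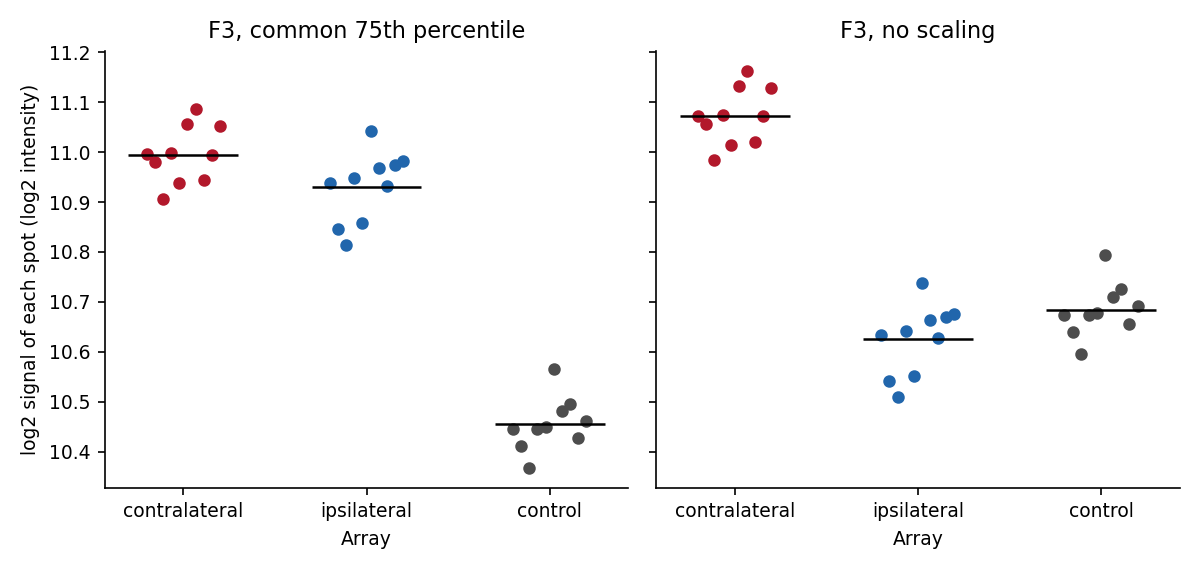
Log2 signal (log2 intensity) of each of the 10 F3 spots on each array, at a common 75th percentile on the left and without scaling on the right; points are spots and lines are means. At the common percentile the control spots lie below all others, with medians of 2042, 1969 and 1396 in linear signal for contralateral, ipsilateral and control, and without scaling the ipsilateral spots overlap those of the control array.

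Genes with a pair of ratios close to that of F3 were sought among the 11249 detected genes that had a symbol. Among the nearest were Ticam2, an adaptor of toll-like receptor signalling, at a Euclidean distance of 0.029, and Sparc, a matrix protein, at 0.033. In all, 72 genes lay within 0.1 of F3 in this measure, which rests on 3 arrays.

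Tfpi encodes tissue factor pathway inhibitor, which blocks the complex of tissue factor and factor VIIa. Probe A_42_P706904 had scaled signals of 249 on the contralateral, 295 on the ipsilateral and 337 on the control array, and probe A_44_P726985, which carries the accession of another transcript, had scaled log2 signals of 3.93, 3.91 and 4.33. Both probes were thus brightest on the control array. The contralateral log2 ratios were -0.44 with a scanner error of 0.20 and -0.40 with an error of 0.30. On the ipsilateral side they were -0.19 with an error of 0.20, which does not pass it, and -0.43 with an error of 0.35. The mean of both probes gave -0.42 and -0.31, with errors of 0.25 and 0.28. The first probe was below control on both sides under 8 of 8 scalings, and the dim second probe under 7 of 8, the exception being normexp with 0.03 and 0.26.

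Thbd encodes thrombomodulin, the endothelial receptor that binds thrombin. Its probe A_43_P15023 had scaled signals of 289 on the contralateral, 276 on the ipsilateral and 426 on the control array. Both sides were below control, with log2 ratios of -0.56 and -0.63 and a scanner error of 0.20, and they differed from each other by 0.06. That difference was 0.24 with spike-in scaling and 0.45 without scaling, past the error. Both ratios to control were negative under 8 of 8 scalings, from -0.71 to -0.38 and from -1.16 to -0.44. Its other probe, A_64_P033610, was dim, with scaled log2 signals of 2.47, 4.14 and 3.59, and fell short of the flag in the contralateral pool only. By this probe control was at least 1.32-fold and the ipsilateral side at least 1.93-fold higher than the contralateral side at this scaling. Control was higher than the contralateral side under 7 of 8 scalings, but not with normexp. No exact contralateral ratio is given, as that signal fell short of the flag. On the ipsilateral side this probe gave a log2 ratio of 0.54 with an error of 0.43, opposite in sign to the first. That ratio was positive under 8 of 8 scalings, but only 0.01 without scaling. The first probe minus the second was -1.17 there, with an error of 0.47. The ipsilateral mean of the probes, -0.04, describes neither.

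Procr, which encodes the endothelial protein C receptor, was dim. Its probe had scaled signals of 9.84 on the contralateral, 9.95 on the ipsilateral and 13.2 on the control array, and was not well above background on the ipsilateral array. The contralateral log2 ratio was -0.43 with a scanner error of 0.40, and 0.10 with normexp. Control was at least 1.07-fold higher than the ipsilateral side at this scaling, but with normexp the ipsilateral side was the higher. Pros1, which encodes protein S, the cofactor of activated protein C, was not well above background on any of the 3 arrays, with scaled signals of 3.84, 5.90 and 8.87. No fold is therefore given for it. As a plain ratio its contralateral value was beyond the threshold.

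Vwf encodes von Willebrand factor, the endothelial protein to which platelets bind, and its probes disagreed. Probe A_43_P21694 had scaled signals of 1152 on the contralateral, 1276 on the ipsilateral and 1653 on the control array, and log2 ratios to control of -0.52 and -0.37. Probe A_64_P114913 had 1082, 1122 and 882, with ratios of 0.29 and 0.35. Each ratio had a scanner error of 0.20, so at this scaling all 4 passed it, in opposite directions. The probes differed by -0.82 contralaterally and -0.72 ipsilaterally, with an error of 0.29 for each difference. Both carry the same accession, and which part of the transcript each reads was not analysed here. At this scaling the mean of the probes, -0.11 and -0.01, stayed within the error and describes neither. The mean passed the error without scaling, at -0.26 contralaterally and -0.55 ipsilaterally. With spike-in scaling it passed on the ipsilateral side only, at -0.27. The first probe was negative under 8 of 8 scalings on both sides. The second was positive under 8 of 8 contralaterally and 7 of 8 ipsilaterally. Without scaling it had 0.14 contralaterally and -0.19 ipsilaterally, and neither passed the error. Its ipsilateral ratio did not pass with spike-in scaling either, at 0.09.

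**Figure D2:**
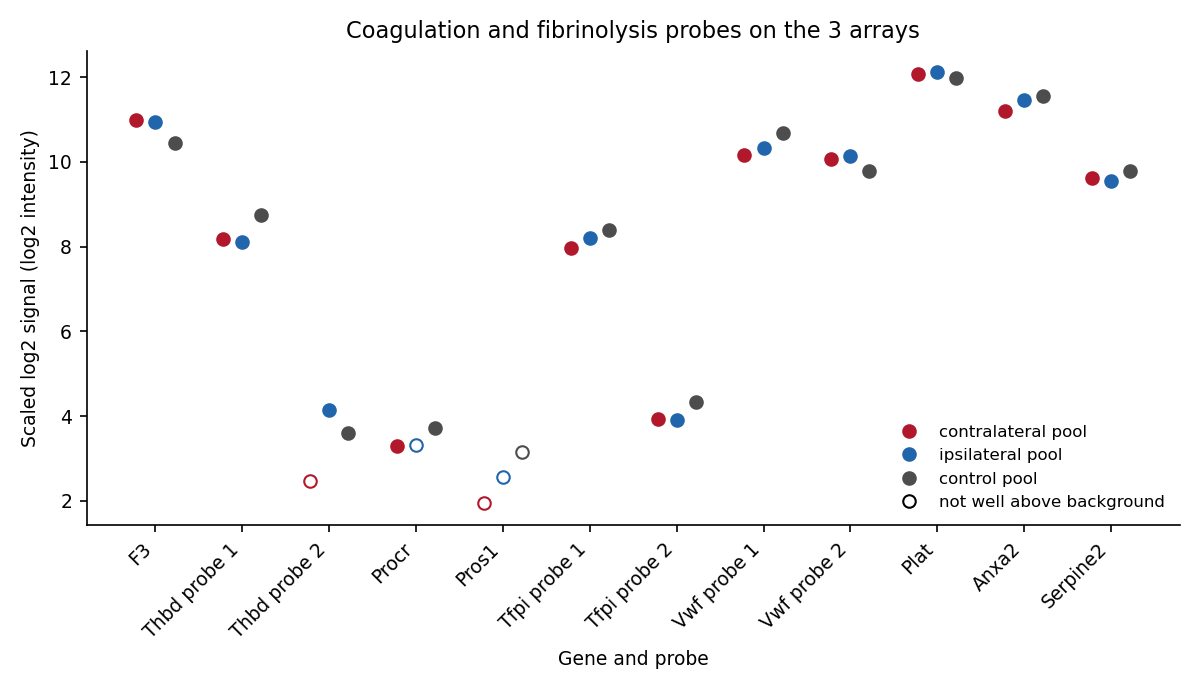
Scaled log2 signal (log2 intensity) of the 12 probes on the 3 arrays, with open circles where a probe was not well above background; probes are numbered in the order in which they are described. Control is the lowest of the 3 for F3, Plat and probe 2 of Vwf, and the 5 open circles belong to Thbd, Procr and Pros1.

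Plat, which encodes tissue plasminogen activator, had scaled signals of 4279 on the contralateral, 4431 on the ipsilateral and 4059 on the control array. The log2 ratios of 0.08 and 0.13 did not pass the scanner error of 0.20. They were positive under 6 of 8 scalings on each side, and reached -0.08 and -0.41 without scaling. No neighbours in the order of the 3 arrays differed beyond the error.

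Anxa2 encodes annexin A2, a membrane protein that holds tissue plasminogen activator and plasminogen together on the cell surface. It had scaled signals of 2337 on the contralateral, 2818 on the ipsilateral and 3020 on the control array. The contralateral side was the lowest, with a log2 ratio of -0.37 to control and -0.27 to the ipsilateral side, each with a scanner error of 0.20. The ipsilateral ratio to control, -0.10, did not pass the error. Both ratios to control were negative under 8 of 8 scalings, from -0.52 to -0.34 and from -0.63 to -0.08. The ratio between the sides was negative under 7 of 8, and 0.11 without scaling. S100a10, which encodes the partner protein of annexin A2, had ratios of -0.28 and -0.12.

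Serpine2 encodes protease nexin-1, an inhibitor of thrombin and of plasminogen activators made by glia and neurons. It had scaled signals of 791 on the contralateral, 748 on the ipsilateral and 876 on the control array. The ipsilateral log2 ratio, -0.23, passed the scanner error of 0.20 and the contralateral ratio, -0.15, did not. The sides differed by 0.08, but by 0.25 with spike-in scaling and 0.46 without scaling, which pass the error. Both ratios were negative under 8 of 8 scalings, from -0.30 to -0.11 and from -0.76 to -0.21.

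RefSeq promoter windows of 300 bases, 250 before to 50 after a start, were found for 5 of the 9 genes, Tfpi, Procr, Pros1, Anxa2 and Serpine2, in 6 windows of the GRCr8 assembly. Promoter sequence of Anxa2 and Serpine2 is shown because their probes were below control on both sides under all 8 scalings, and that of Procr because it shares a motif with Anxa2. Only bases before the annotated gene are printed, 5′ to 3′ on the strand of the gene. Capitals mark the letters TGANTCA (AP-1) in Anxa2 and Procr and GGGCGG on either strand (GC box) in Serpine2.
Anxa2, chr8:78986002-78986251, + strand: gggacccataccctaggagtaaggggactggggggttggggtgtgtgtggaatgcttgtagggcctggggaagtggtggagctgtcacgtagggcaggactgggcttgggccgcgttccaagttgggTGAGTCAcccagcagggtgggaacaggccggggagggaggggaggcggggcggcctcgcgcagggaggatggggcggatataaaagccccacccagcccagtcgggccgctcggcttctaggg
Procr, chr3:164714477-164714726, + strand: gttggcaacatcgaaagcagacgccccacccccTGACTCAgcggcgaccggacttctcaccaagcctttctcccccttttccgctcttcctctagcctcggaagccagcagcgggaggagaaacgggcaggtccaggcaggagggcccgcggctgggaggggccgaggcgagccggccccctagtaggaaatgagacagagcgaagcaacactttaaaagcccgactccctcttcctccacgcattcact
Serpine2, chr9:88637253-88637452, - strand: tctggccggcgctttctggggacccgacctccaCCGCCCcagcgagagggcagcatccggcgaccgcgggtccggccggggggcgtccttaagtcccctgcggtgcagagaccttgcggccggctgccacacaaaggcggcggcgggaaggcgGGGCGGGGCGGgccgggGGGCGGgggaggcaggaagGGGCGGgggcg

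The AP-1 letters stood 123 bases before the start in Anxa2 and 217 bases before it in Procr, and 7.33% of the 33469 promoter windows of the table held them. The window of Serpine2 held 6 GC boxes, of which 5 lie in the stretch shown, and 33.1% of windows held at least 1. An EGR1 match (GCGNGGGCG) in Serpine2, found in 4.98% of windows, overlaps these boxes. Of the 6 windows, 5 held a GC box, 5 the KLF letters CACCC (54.9% of all windows), 2 the hypoxia response core ACGTG (19.3%) and 2 an NF-kB motif, named here without its letters (19.3%). None held the cyclic AMP response element TGACGTCA (1.83%) or the palindromic glucocorticoid response element (0.0149%). Both strands were searched, and a match is a description of letters.

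In the contralateral cerebellar cortex as compared to the control group, 1 of the 9 genes had a log2 ratio below -1 and 0 had one above 1, beside 6.48% and 4.7% of all genes. The gene was Pros1, which was not well above background. Of the 6 detected genes, 0 were beyond the threshold, beside 1.41% of detected genes upwards and 0.851% downwards. Their ratios ran from -0.42 to 0.54 with a median of -0.13, and 2 were above 0, beside 52.4% of such genes with a median of 0.01. The ratios of 3 of the 6, F3, Tfpi and Anxa2, passed the scanner error, as did 32.7% of all detected genes theirs. Over the 8 scalings the count ran from 2 with normexp, beside 19.1%, to 5 without scaling, beside 43.7%.

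In the ipsilateral cerebellar cortex, 0 of the 9 genes were beyond the threshold in either direction, beside 13.4% of all genes upwards and 3.14% downwards. For detected genes these shares were 3.1% and 0.797%. The 6 ratios ran from -0.31 to 0.48 with a median of -0.06, and 2 were above 0, beside 55.9% of such genes with a median of 0.03. The ratios of F3, Tfpi and Serpine2 passed the scanner error, beside 36.6% of detected genes, but that of Tfpi turned to 0.08 with normexp and that of F3 to -0.06 without scaling. Over the 8 scalings the count ran from 2 with normexp, beside 38.2% of detected genes, to 5 with spike-in scaling and without scaling, beside 62% and 88.1%. Negative control spots, designed to bind no transcript, had a log2 ratio to control of 0.51 here after scaling and of 0.06 on the contralateral side, so dim probes are least certain on the ipsilateral side.

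Between the sides, contralateral over ipsilateral, 0 of the 9 genes were beyond the threshold, beside 1.85% of all genes upwards and 13.4% downwards, or 0.217% and 1.54% of detected genes. The median of the 6 genes was -0.08, beside -0.01 for such genes. Only Anxa2 of the 6 passed the scanner error in this comparison, beside 22.7% of detected genes. This call depended on the scaling. Without scaling Anxa2 did not pass, while F3, Vwf, Plat and Serpine2 did, beside 81.9% of detected genes, and with spike-in scaling F3 and Serpine2 passed in its place, beside 43.9%. Without scaling, the median log2 ratio of all genes moved from 0.04 to -0.11 on the contralateral side, from 0.13 to -0.40 on the ipsilateral side and from -0.11 to 0.28 between the sides.

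**Figure D3:**
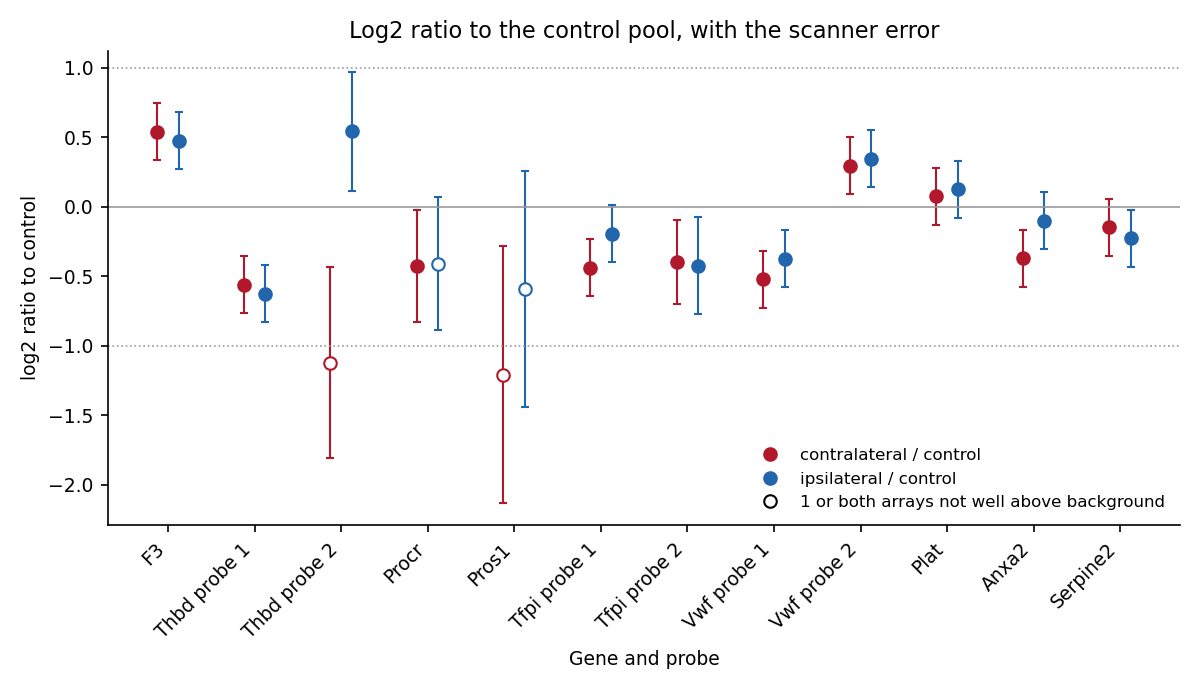
Log2 ratio to control of each of the 12 probes on the contralateral and ipsilateral side, with the scanner error as bars and open circles where an array of the pair was not well above background; dotted lines mark a log2 ratio of 1 and -1. No filled circle lies beyond the dotted lines, and the probes of Vwf lie on opposite sides of 0.

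**Figure D4:**
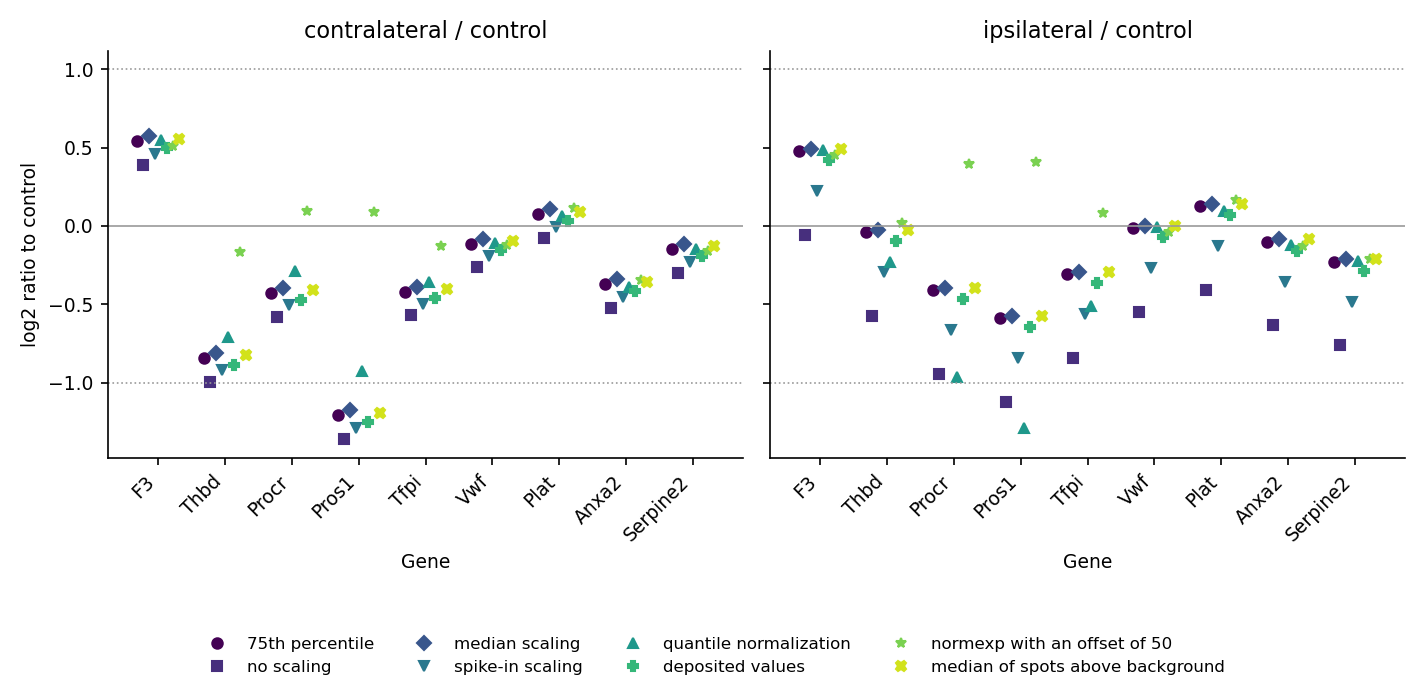
Log2 ratio to control of the 9 genes under 8 scalings, 1 symbol for each, for the contralateral side on the left and the ipsilateral side on the right; dotted lines mark 1 and -1. The ipsilateral ratio of F3 is -0.06 without scaling and 0.48 at the 75th percentile. Normexp lifts Procr and Pros1 above 0 on both sides, and Tfpi and Thbd on the ipsilateral side, to 0.08 and 0.02.

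The wider pathway was described from lists of 57 other genes, of which 50 were on the arrays, 17 were detected and 19 were well above background on no array. In the contralateral cerebellar cortex 0 of the 17 were beyond the threshold, beside 1.41% of detected genes up and 0.851% down, 8 were above 0 and their median log2 ratio was -0.02. In the ipsilateral cerebellar cortex 1 was above 1 and 0 below -1, beside 3.1% and 0.797%, with a median of 0.04. Over all 50 genes, most of them not detected, 4 were above 1 and 6 below -1 contralaterally, and 13 and 4 ipsilaterally, beside 4.7% and 6.48% and 13.4% and 3.14% of all genes. The gene was Kng2, a kininogen, at 1.70 with a scanner error of 0.24, and its contralateral ratio was 0.60. Between the sides, 1 of the 17 was beyond the threshold, again Kng2, at -1.10, and 13 of the 50 were below -1, beside 1.54% of detected and 13.4% of all genes. The call of Kng2 between the sides was lost with spike-in scaling, at -0.93, without scaling, at -0.72, and with normexp, at -0.68, and its ipsilateral ratio to control was 0.95 with normexp. The ipsilateral median of the 17 ran from -0.50 without scaling to 0.11 with normexp, and the contralateral median from -0.17 to 0.05. The related kininogen gene Kng1, named here with its values known, was not detected by this rule. Its 3 probes had a mean ratio of 1.06 contralaterally and 2.37 ipsilaterally, with scanner errors of 0.39 and 0.36. Whether the probe of Kng2 also binds transcripts of Kng1 was not tested.

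Of the coagulation cascade, 5 of 16 genes were detected, with medians of -0.02 and 0.07 on the contralateral and ipsilateral side, the latter -0.19 with spike-in scaling and -0.47 without scaling. Factors made mainly in the liver were dim, and F2, F7, F9 and Fgg were not well above background on any array. The genes with the highest signal were Vkorc1 and Ggcx, which recycle and use vitamin K, with ratios of -0.02 and -0.02 contralaterally and 0.04 and 0.05 ipsilaterally. F8 was not detected by this rule. Over all 16 genes, most of them not detected, the ipsilateral median was 0.52, beside 0.13 for all genes and 0.51 for negative control spots.

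Among other anticoagulant genes, 3 of 9 were detected, and the medians were -0.25 and -0.29, below 0 under all 8 scalings on both sides. Over all 9, dim genes included, the ipsilateral median was 0.12, opposite in sign, with 3 genes above 1 and 1 below -1, beside 13.4% and 3.14% of all genes. Serpina5, the protein C inhibitor, was lowest of the 3 at -0.64 and -0.96 with errors of 0.20 and 0.21. Anxa5, which covers the phospholipids on which clotting factors assemble, had -0.25 and -0.29, and A2m, a broad protease inhibitor, 0.08 and 0.12. Serpind1, Proz, Serpina10 and Tfpi2 were not well above background on any array.

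Of the plasminogen system, 6 of 11 genes were detected, with medians of -0.06 and -0.05, and of -0.20 and 0.00 over all 11. Among the detected 6 the contralateral median was 0.04 with normexp, and the ipsilateral one -0.58 without scaling. Serpini1, which encodes neuroserpin, the inhibitor of tissue plasminogen activator in neurons, had 0.09 and 0.00, and Lrp1, a receptor that clears the activator, 0.08 and -0.08, all within the scanner error of 0.20. Plau, which encodes urokinase, Serpinb2 and Cpb2 were not well above background on any array. Of the thrombin receptor genes 0 of 4 were detected. F2rl1 and F2rl3 were well above background on no array. Of the platelet and adhesion genes 3 of 10 were detected, with medians of 0.14 and 0.56, and of 0.03 and 0.40 over all 10. Ipsilaterally the median of all genes was 0.13, and negative control spots had 0.51. The ipsilateral median of the 3 was positive under all 8 scalings, from 0.03 to 0.58, and the contralateral median was -0.01 without scaling. Pf4, a chemokine of platelets, had 0.14 and 0.58 and Tbxas1, thromboxane synthase, 0.27 and 0.56. Gp9, a platelet glycoprotein named here with its values known, had -0.02 and -0.04, within its scanner error. Contralaterally none of the 3 passed its error. Of 9 microglia and macrophage markers 8 were detected, 5 above control contralaterally and 6 ipsilaterally, with medians of 0.19 and 0.31, the latter -0.22 without scaling, and their signal summed over all 9 was 4113 on the contralateral, 5354 on the ipsilateral and 3299 on the control array. The brightest, Cx3cr1, had 0.78 and 1.27, and Aif1 -0.29 and -0.10. The part of these cells in the ratios of Pf4 and Tbxas1 was not tested. P2ry1 was not detected, and Gp1ba, Gp5, Selp, Thbs1 and Ppbp were well above background on no array.

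Markers of vascular cells, which carry several of these genes, mostly had ratios below 0. Of 11 endothelial markers, all detected, 9 were below control contralaterally and 7 ipsilaterally, with median log2 ratios of -0.24 and -0.14 that stayed negative under all 8 scalings. Their summed scaled signal was 5467 on the contralateral, 5531 on the ipsilateral and 6972 on the control array. Cldn5, the brightest, had -0.19 and -0.14, Tie1 was the lowest on the contralateral side at -0.78 and Ocln the highest at 0.09. The part of the endothelial markers in the ratios of Thbd, Tfpi and Vwf was not tested. Pericyte and mural markers, 8 of 9 detected, had medians of -0.14 and -0.12, negative under all 8 scalings, and signals that summed over all 9 to 3335, 3481 and 3697. Cspg4 was the brightest of these at -0.05 and -0.01, and of those detected Rgs5 was the lowest contralaterally at -0.42 and Notch3 the highest at -0.03.

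Leptomeningeal markers were mostly below control, as was Anxa2. All 9 were detected and below control on the contralateral side, with a median of -0.58, and 8 of 9 on the ipsilateral side, with a median of -0.24, and both medians were negative under all 8 scalings. Their summed scaled signal was 9216 on the contralateral, 12344 on the ipsilateral and 15440 on the control array. Col1a2, the brightest, had -0.85 and -0.37, Col1a1 was the lowest on the contralateral side at -1.26 and Dcn the highest at -0.03. Anxa2 had the same order of the arrays as the leptomeningeal sum. The sums of endothelial, of pericyte and mural, of astrocyte and Bergmann glia and of oligodendrocyte markers had this order too. Those of the other cell type lists did not. The part of leptomeningeal or other cells in the ratio of Anxa2 was not tested. Erythroid markers, 3 of 6 detected, had medians of -0.85 and -0.88. Hba-a1 had -0.88 and -1.03, and Ahsp, of those detected the highest on the contralateral side only, -0.75 and -0.88. The signal summed over all 6 was 1190 on the contralateral, 1087 on the ipsilateral and 2217 on the control array. Both medians were negative under all 8 scalings. The part of blood in the ratios of the pathway genes was not tested.

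**Figure D5:**
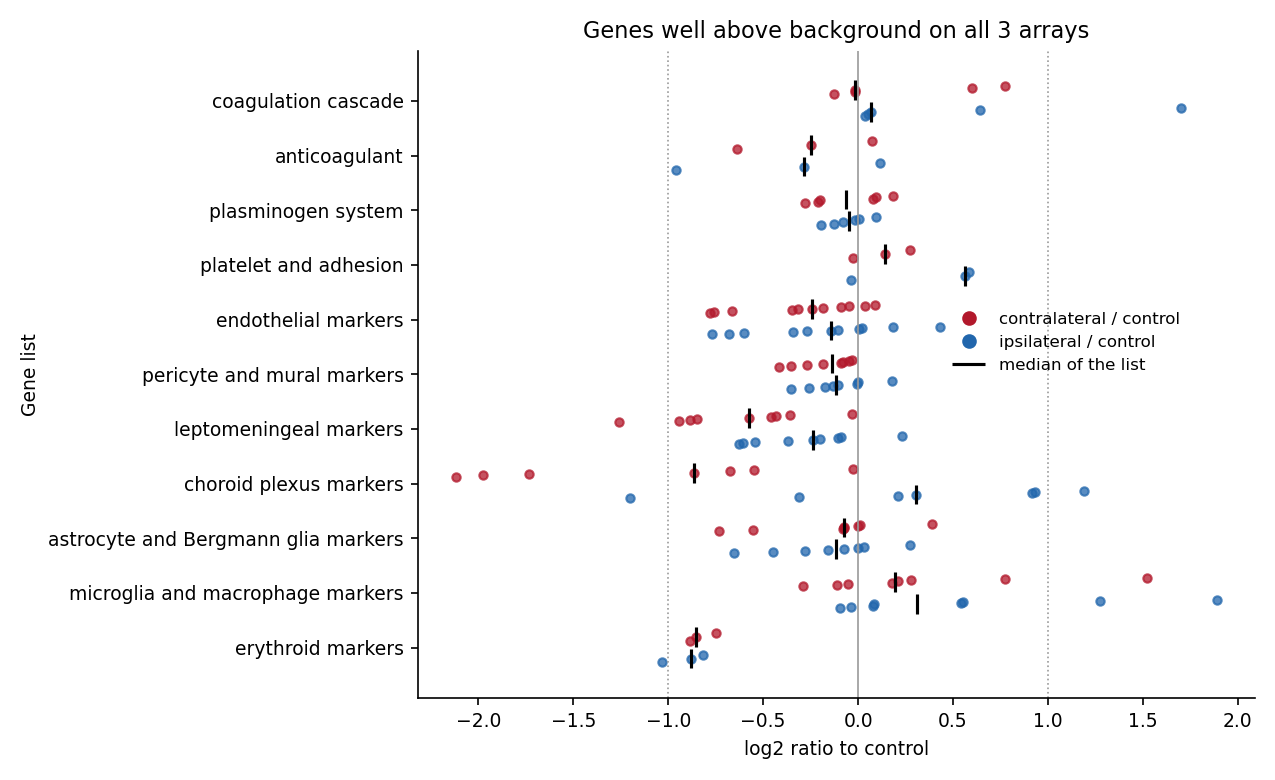
Log2 ratio to control of the detected genes in the pathway lists and in lists of cell type markers, 1 point per gene, with the contralateral side above the ipsilateral side in each list; bars are medians and dotted lines mark 1 and -1. The leptomeningeal points lie to the left of 0 on the contralateral side, with a median of -0.58, and the choroid plexus medians are -0.87 contralaterally and 0.30 ipsilaterally, the latter -0.23 without scaling.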

How the data were processed

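Total RNA was labelled with Cy3 and read on Agilent arrays of 1 colour. The authors deposited a fluorescence intensity per spot from Agilent Feature Extraction 12.1.0.3, which subtracts the background and corrects spatial trends. A second deposited table held the same intensity times 1 factor per array, 1.12, 1.45 and 1.04 for contralateral, ipsilateral and control. The 3 arrays shared 1 slide and 1 scan, so no batch could be compared. The other values used, per the file headers, were flags of each spot and the error of its intensity.

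From these, log2 signals were shifted to a common 75th percentile. The 759 spots marked as outliers were left out. Spots were averaged to probes and probes to genes. A RefSeq symbol (GRCr8 table) was found for 17622 of 39957 accessions, and the others stayed separate. Coordinates of the array design were not used. A gene was detected when every probe was well above background on each array. The error of a gene was not reduced for its number of spots. With 1 array per group the number of arrays limits the precision. A probe well above background on 1 array of a pair is given as "at least", against the higher of its own signal and the lowest signal well above background on the dim array.

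Named genes were all 9 genes, pathway genes beyond the threshold and detected, the 3 brightest of each pathway list and, of each cell type list, the brightest gene and the largest and smallest contralateral ratio among those detected. Some genes that these rules name are not reported here. The genes and lists were chosen with earlier results of these data known. Alternatives tried were unscaled signals, the median or 8 spike-in probes as the base of scaling, the deposited values, quantile normalization, normexp with an offset of 50 (on median signals, as no mean signal was used here), 50 added to the signal, a filter on dim probes, the brightest probe, outlier spots kept and a ratio beyond 1.5. Scaling to the median of spots well above background was chosen after seeing the data. The tools were limma 3.58.1 (R 4.3.3) for normexp and quantile normalization, and numpy 2.4.6, pandas 2.3.3 and matplotlib 3.10.9 (Python 3.11.15) for the rest.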

Additional observations from a re-analysis of the deposited data

Results flagged for a closer look

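Of the 48 detected genes picked by the rules of naming, 9 had log2 ratios to control of opposite sign on the sides at the common 75th percentile. Under the 8 scalings the number was 7 to 11. Without scaling 7 of these 9 were below control on both sides, and only Ttr and Nrgn kept opposite signs. Ttr had them under 8 of 8 scalings, Nrgn under 7 and the others under 4 to 6. Of the pathway, the contralateral and ipsilateral values were -0.02 and 0.05 for Ggcx, a difference of -0.070, and -0.02 and 0.04 for Vkorc1, a difference of -0.054. For Lrp1 they were 0.08 and -0.08, a difference of 0.16. These 3 differences were within the scanner error of 0.20. Among the markers of cell types picked by these rules the widest was that of Ttr, with -1.73 and 1.19, a difference of -2.93 with an error of 0.20. Next among those picked was Nrgn, with 1.83 and -0.21, a difference of 2.04 with an error of 0.23. Sostdc1, a detected choroid plexus marker that was not picked, had -1.98 and 0.92, a wider difference of -2.89. Otx2 had -0.02 and 0.30, a difference of -0.33, Dcn -0.03 and 0.23, a difference of -0.26, and Notch3 -0.03 and 0.18, a difference of -0.21. The errors were 0.20, 0.20 and 0.21, and that of Notch3 was barely passed. Neurod6 had -0.05 and 0.06, a difference of -0.11 within its error of 0.20. None of the 9 differences was tested.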

How the results depend on the processing

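No paired analysis was possible because there was 1 array per group. Values below are in the order contralateral to control, ipsilateral to control and contralateral to ipsilateral. At the common 75th percentile 1, 0 and 0 of the 9 genes were beyond the threshold, with 4.7% up and 6.48% down, 13.4% up and 3.14% down, and 1.85% up and 13.4% down of all genes. Without scaling the ipsilateral count was 1 gene, with 6.72% up and 8.6% down, and 3.63% up and 8.88% down between the sides. Spike-in scaling gave 4.89% down on the ipsilateral side. Quantile normalization gave 0 genes and 1 gene to control, with 7.35% up and 6.25% down on the ipsilateral side and 5.53% up and 6.47% down between the sides. With normexp 0 genes were beyond the threshold on the contralateral side, and the shares were 0.185% and 0.131%, 0.429% and 0.0616%, and 0.018% and 0.1%. With 50 added to the signal the count was 0, and the shares were 0.228% and 0.239%, 0.367% and 0.205%, and 0.11% and 0.151%. With detected genes only the count was 0, and the shares were 1.41% and 0.851%, 3.1% and 0.797%, and 0.217% and 1.54%. With a ratio beyond 1.5 the counts were 2, 1 and 2 genes, and the shares 9.1% and 12.2%, 20.9% and 6.63%, and 3.82% and 20.4%.

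Genes above control made up 42.1% of those beyond the threshold on the contralateral side, but 62.4% of detected genes beyond it, 58.5% with normexp, 51.1% after quantile normalization and 31.3% without scaling. On the ipsilateral side the share was 81%, but 67% with spike-in scaling, 64.1% with 50 added, 54.1% after quantile normalization and 43.9% without scaling. Between the sides it was 12.2%, but 29% without scaling, 46.1% after quantile normalization and 42.2% with 50 added. The contralateral ratio of Pros1 turned to 0.091 with normexp. The causes were not tested, save that adding 50 pulls the ratio of dim genes towards 0. Of the other ratios of the 9 genes, 252 moved by less than the scanner error and 35 by more, 17 to lower and 18 to higher values. Signal over background limits Procr, Pros1 and the dim probe of Thbd.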

Other observations

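Other cell types were read from their markers. Choroid plexus markers, 7 of 9 detected, had median log2 ratios to control of -0.87 contralateral and 0.30 ipsilateral, and scaled signals that summed over all 9 to 10715 on the contralateral, 76816 on the ipsilateral and 34075 on the control array. Ttr, the brightest, had -1.73 and 1.19, and on the contralateral side Slc4a5 was the lowest of those detected at -2.12 and Otx2 the highest at -0.02. On the ipsilateral side 5 of the 7 were above control and 2 below, with Slc4a5 at -1.20. The ipsilateral median turned negative without scaling, to -0.23. Ttr is also the brightest of the liver plasma protein markers, of which 2 of 7 were detected, with medians of -0.62 and 0.88, and the other was Serpina1, at 0.49 and 0.57.

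Microglia and macrophage markers, 8 of 9 detected, had medians of 0.19 and 0.31, with Cx3cr1, the brightest, at 0.78 and 1.27, Cd163 at 1.52 and 1.89 and Aif1 at -0.29 and -0.10. The ipsilateral median was -0.22 without scaling. Astrocyte and Bergmann glia markers, 8 of 8, had -0.07 and -0.12, with Aqp4 at -0.55 and -0.45, Gfap at -0.73 and -0.66 and Gdf10 at 0.39 and 0.27. Oligodendrocyte markers, 6 of 6, had -0.13 and -0.12, with Mobp at 0.28 and Cnp at -0.47 on the contralateral side. Among granule cell markers Cbln1 had -0.10, Etv1 0.27 and Fat2 -0.13 on that side, and among Purkinje cell markers Itpr1 0.22 and Pcp2 -0.04. Of the forebrain markers 2 of 5 were detected, Neurod6 at -0.05 and 0.06 and Nrgn at 1.83 and -0.21, with medians of 0.89 and -0.08, the latter 0.16 with normexp, and Tbr1 was well above background on no array.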
